A study of Rattus norvegicus with 14 samples.

Results

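Hox genes encode homeodomain transcription factors that lie in 4 clusters, A to D, and are numbered by paralog group along each cluster. The 22 members described here are the single-symbol probe sets named Hoxa, Hoxb, Hoxc or Hoxd with a paralog number, out of 14497 genes compared on the array. A RefSeq table lists 39 rat Hox genes by the same naming rule, of which 5 of 11 in cluster A, 7 of 10 in cluster B, 4 of 9 in cluster C and 6 of 9 in cluster D are among the members. The other 17, including Hoxa13, Hoxc13, Hoxd11 and Hoxd12, were not analysed here. Each member had 1 probe set.

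The tissue was foreskin of Sprague Dawley rat pups on postnatal day 5. In the flutamide group the dams had received 5 mg/kg/day of flutamide, a nonsteroidal blocker of the androgen receptor, by gavage on gestational days 16 to 20, and in the corn oil group they had received the vehicle alone on the same days. There were 7 litters per group. RNA of 2 foreskins from a litter was pooled on 1 Affymetrix Gene 1.0 ST array, which makes the litter the replicate. Whole foreskin mixes epidermis, dermis, follicles, muscle and vessels, and in such bulk RNA fewer cells of a type and less RNA per cell cannot be told apart.

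During development Hox genes are switched on in the order in which they lie along a cluster, so that posterior body regions come to express the high paralog numbers. Cells of adult skin keep much of this positional code, chiefly the dermal fibroblasts. In the mouse genital tubercle, the bud that forms penis and prepuce, Hoxd13 and Hoxa13 act together, and loss of both stops its outgrowth.

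Promoters are shown for 3 genes spread along cluster D: Hoxd13 at its genital end and Hoxd3 near its anterior end, which had the lowest p-values of the family between the groups, and Hoxd10, the member of this cluster with the highest array value. Each window holds 300 bases of RefSeq sequence of the GRCr8 build, 250 before and 50 after the annotated transcript start, written 5′ to 3′. Where transcription starts in foreskin was not examined, so a window may not hold the promoter in use. Capitals mark TATAAA or its reverse complement, which overlap in the Hoxd13 window.
Hoxd13, chr3:79977827-79978126, plus strand: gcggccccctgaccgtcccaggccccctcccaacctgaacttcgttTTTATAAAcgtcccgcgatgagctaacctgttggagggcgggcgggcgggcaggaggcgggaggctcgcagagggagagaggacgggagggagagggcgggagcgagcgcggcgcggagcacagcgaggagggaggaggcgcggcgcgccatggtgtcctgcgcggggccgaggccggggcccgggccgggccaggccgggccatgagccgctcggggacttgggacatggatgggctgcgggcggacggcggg
Hoxd10, chr3:80001697-80001996, plus strand: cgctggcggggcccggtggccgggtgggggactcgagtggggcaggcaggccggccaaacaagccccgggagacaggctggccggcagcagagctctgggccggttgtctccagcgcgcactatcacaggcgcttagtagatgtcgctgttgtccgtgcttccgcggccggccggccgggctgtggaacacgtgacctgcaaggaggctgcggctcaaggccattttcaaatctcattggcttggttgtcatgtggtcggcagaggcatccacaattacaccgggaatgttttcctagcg
Hoxd3, chr3:80045876-80046175, plus strand: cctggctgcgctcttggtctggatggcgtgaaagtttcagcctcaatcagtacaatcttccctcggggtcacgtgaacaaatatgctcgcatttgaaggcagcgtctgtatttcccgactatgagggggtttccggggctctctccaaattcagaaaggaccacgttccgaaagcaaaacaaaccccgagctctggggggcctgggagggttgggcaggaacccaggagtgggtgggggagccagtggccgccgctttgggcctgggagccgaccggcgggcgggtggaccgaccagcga
RefSeq promoter windows were found for 11 of the 22 members: all those of cluster D, with Hoxa2, Hoxa4, Hoxa7, Hoxa11 and Hoxc4. No member of cluster B had one, so the values below do not describe that cluster. The median GC content of the 11 windows was 62.7%, against 51.7% over 33469 rat promoter windows. Their median ratio of observed to expected CpG was 0.777, against 0.392. Hoxd13 had 36 CpG and a ratio of 0.914, above 89.4% of all windows, while Hoxc4 had a ratio of 0.230. Both strands were searched for 4 motifs. The androgen receptor half-site AGAACA was in 1 of the 11 Hox windows, that of Hoxd4, and in 20.7% of all windows. TATAAA was in 1 of the 11, that of Hoxd13, and in 14.2% of all windows. The Hox13 binding sequences CCAATAAA and CTCGTAAA were in none of the 11, and in 1.17% and 0.134% of all windows. A match or its absence describes these letters in this window only.

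The tissue label was set beside marker genes of cell types. These markers do not tell foreskin from other skin. In the corn oil litters the 5 measured basal keratinocyte markers had array values from 6.73 to 9.87 on the log2 scale, with Krt14 at 9.87, above 98.8% of genes. The 3 measured suprabasal epidermis markers had values from 8.55 to 12.3. The 7 dermal fibroblast markers had values from 6.50 to 11.1. The 4 urothelium markers ranged from 5.01 to 6.25. Medians of the 14 arrays spanned 0.045, and arrays correlated pairwise at 0.984 to 0.992. The sample titles call the replicates biological, and each was taken as a separate litter.

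In the corn oil litters the Hox genes spanned 4.13 to 6.80 on the log2 scale of the array. An array value carries the affinity of its probes, so an order of genes is one of array values and not of transcript number. The family was dim as a whole: its median was 5.28, against 5.89 over all genes, and 4 of the 22 members lay above that median. As a mark for dim genes, the 95th percentile of 53 olfactory receptor genes, which have no known role in skin patterning, was 5.28 in the corn oil litters. Of the Hox genes 11 had a mean above this mark and 11 below it. Detection calls were not used, and presence was not called for any member.

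The brightest Hox genes came from the anterior and the middle parts of the clusters as well as from the posterior part. Hoxb3, a gene of the hindbrain and pharyngeal arches, averaged 6.80 ± 0.14 (SD, n = 7). Hoxd10, a gene of the lumbar spinal cord and hindlimb, followed with 6.51 ± 0.24, Hoxb4 with 6.30 ± 0.06, Hoxa7, a thoracic patterning gene, with 6.28 ± 0.13, and Hoxc9, also thoracic, with 5.89 ± 0.21. Hoxb3 exceeded Hoxd10 by more than the larger SD of the pair, and Hoxa7 exceeded Hoxc9 likewise. The steps between Hoxd10 and Hoxb4 and between Hoxb4 and Hoxa7 were within that spread. Of the 21 steps between neighbours in the order of all members, 6 exceeded the larger SD, the lowest of them between Hoxc12 and Hoxb9.

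Within the clusters the levels did not follow one order of paralog number. In cluster A the values climbed along the measured genes, with 5.15 for Hoxa2, 5.41 for Hoxa4, 5.61 for Hoxa5 and 6.28 for Hoxa7, and Hoxa11, a gene of the limb and uterus, was at 5.40. In cluster B, Hoxb2 was at 4.79, Hoxb3 and Hoxb4 were the highest, and Hoxb7 at 5.80, Hoxb8 at 4.56 and Hoxb9 at 4.13 were each lower than the gene before. Hoxb9 was the dimmest gene of the family, and Hoxb13, the paralog of Hoxd13 known from prostate and tail, was at 4.73. In cluster C only Hoxc9 lay above the olfactory mark. Hoxc4 was at 5.26, Hoxc5 at 4.49 and Hoxc12, a gene at the posterior end of the cluster, at 4.48. In cluster D, Hoxd1 was at 5.61, Hoxd3 at 4.52, Hoxd4 at 4.97, Hoxd9 at 5.00, Hoxd10 at 6.51 and Hoxd13 at 5.31. As a description across genes, Spearman's rho of level on paralog number was 0.40 in cluster A over 5 genes, -0.68 in cluster B over 7, -0.40 in cluster C over 4 and 0.31 in cluster D over 6.

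**Figure D1:**
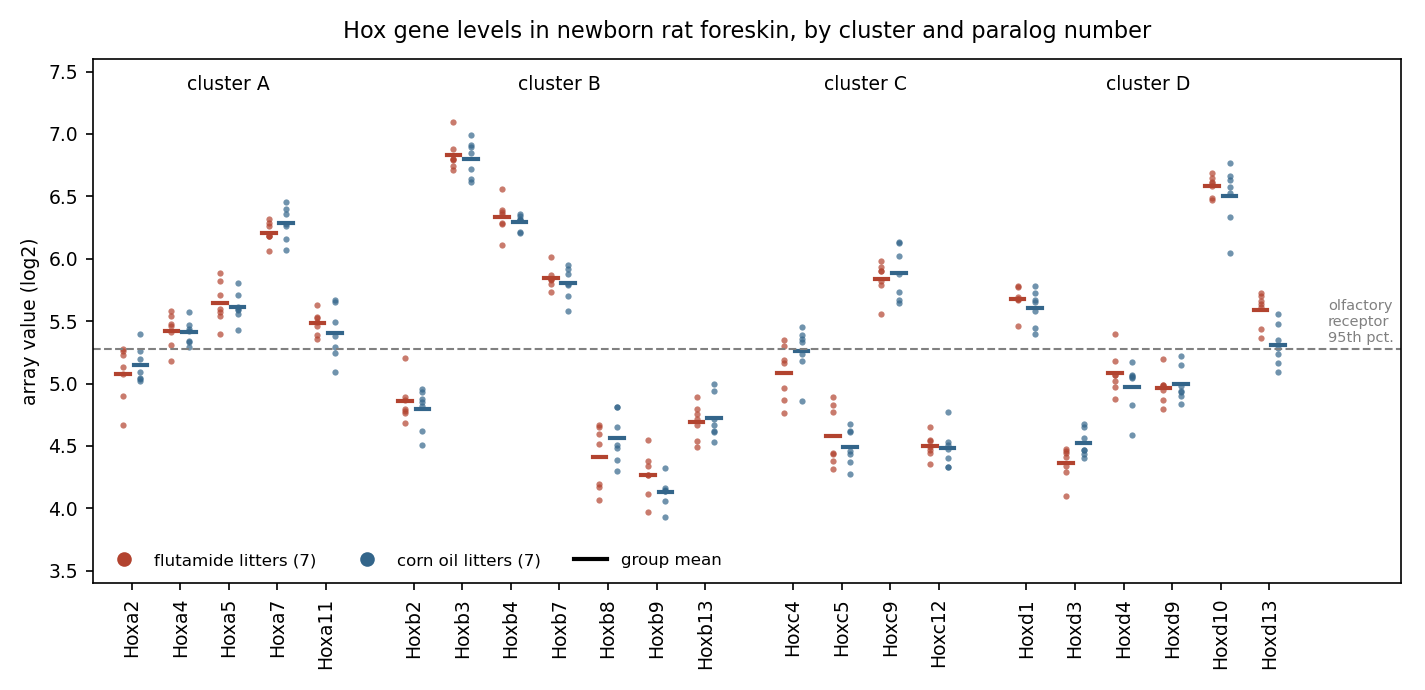
Array values on the log2 scale of the 22 Hox genes in each flutamide litter (red, left of each pair) and corn oil litter (blue, right), by cluster and paralog number, with bars at the group means. The dashed line is the 95th percentile of olfactory receptor genes in corn oil, 5.28, with Hoxb3, Hoxb4, Hoxa7 and Hoxd10 well above it and Hoxd13 in corn oil at it.

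Genes of the same paralog group differed in array value between clusters. In group 4, Hoxb4 was highest at 6.30, then Hoxa4 at 5.41, Hoxc4 at 5.26 and Hoxd4 at 4.97. In group 9, Hoxc9 at 5.89 stood above Hoxd9 at 5.00 and Hoxb9 at 4.13. In group 13, Hoxd13 at 5.31 ± 0.17 stood above Hoxb13 at 4.73 ± 0.18 (SD, n = 7 each). Hoxd13 ranked in the middle of the family and above 32.1% of all genes. Its mean minus the olfactory mark was 0.032, less than its SD between litters, and this gap was -0.075 without corn oil replicate 5.

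The comparison of flutamide with corn oil litters asks whether prenatal blockade of the androgen receptor left a difference in Hox expression after birth. No Hox gene passed limma's moderated test at a Benjamini-Hochberg adjusted p under 0.05 over all 14497 genes. Over all genes 0.0069% passed, which is 1 gene. At an unadjusted p under 0.05 there were 2 of 22 members, against 9.16% of all genes: Hoxd13 was higher, where 5.7% of all genes were, and Hoxd3 lower, where 3.46% were. A share of 2 in 22 is near that background. The groups overlapped for every member, and they did not overlap for 0.124% of all genes.

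Hoxd13 had the largest difference of the family. Its values in the flutamide litters had a lowest of 5.36, a median of 5.64 and a highest of 5.73, against a lowest of 5.09, a median of 5.28 and a highest of 5.56 in the corn oil litters. All 7 flutamide litters lay above the corn oil mean, and 5 of them above every corn oil litter. All 7 also lay above the olfactory mark, against 4 of the 7 corn oil litters, but that mark was set in corn oil alone. The olfactory genes had a median difference of 0.053, more than the 0.032 between the corn oil mean of Hoxd13 and the mark. How far the contrast in litters above the mark is shared with such dim genes was not tested. The means were 5.59 ± 0.14 in flutamide and 5.31 ± 0.17 in corn oil litters (SD, n = 7 each), a difference of 0.28 (SE 0.08), or 1.22-fold with a 95% confidence interval from 1.09 to 1.36. The exact two-sided permutation p for this gene alone was 0.00699 over 3432 splits of the litters. Its limma adjusted p was 0.304, with 83 genes ahead of it by p-value, so the difference did not pass. Hoxd13 was chosen as the marker of the family with this difference already known. A difference of that size in either direction was found for 1.18% of all genes.

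Hoxd3, a gene of the neck vertebrae and pharyngeal region in the mouse, had lower values. The flutamide litters had a lowest of 4.10, a median of 4.41 and a highest of 4.48, against 4.41, 4.47 and 4.68 in the corn oil litters. All 7 flutamide litters were below the corn oil mean, and 3 were below every corn oil litter. The difference was -0.16 (SE 0.07, limma adjusted p = 0.481), with an exact permutation p of 0.0256 for this gene alone. Hoxd3 was given the exact test because its unadjusted limma p in the same litters was under 0.05, so the exact p is not separate support. None of the 14 litters was above the olfactory mark for Hoxd3, and RMA shrinks differences of such dim probe sets.

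The remaining 20 members had 95% intervals that held 0. Of all 22 members 14 had a difference above 0 and 8 below, where 52.3% of all genes were above 0. The median difference was 0.031, against 0.005 over all genes. The 53 olfactory receptor genes, which are dim like much of the family, had a larger median difference of 0.053. The median size of the difference, 0.070, was close to the 0.060 of all genes. The 95% intervals of all 22 members stayed inside 1.5-fold, both upward and downward. The median SD between litters was 0.154 for the members and 0.138 for all genes.

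**Figure D2:**
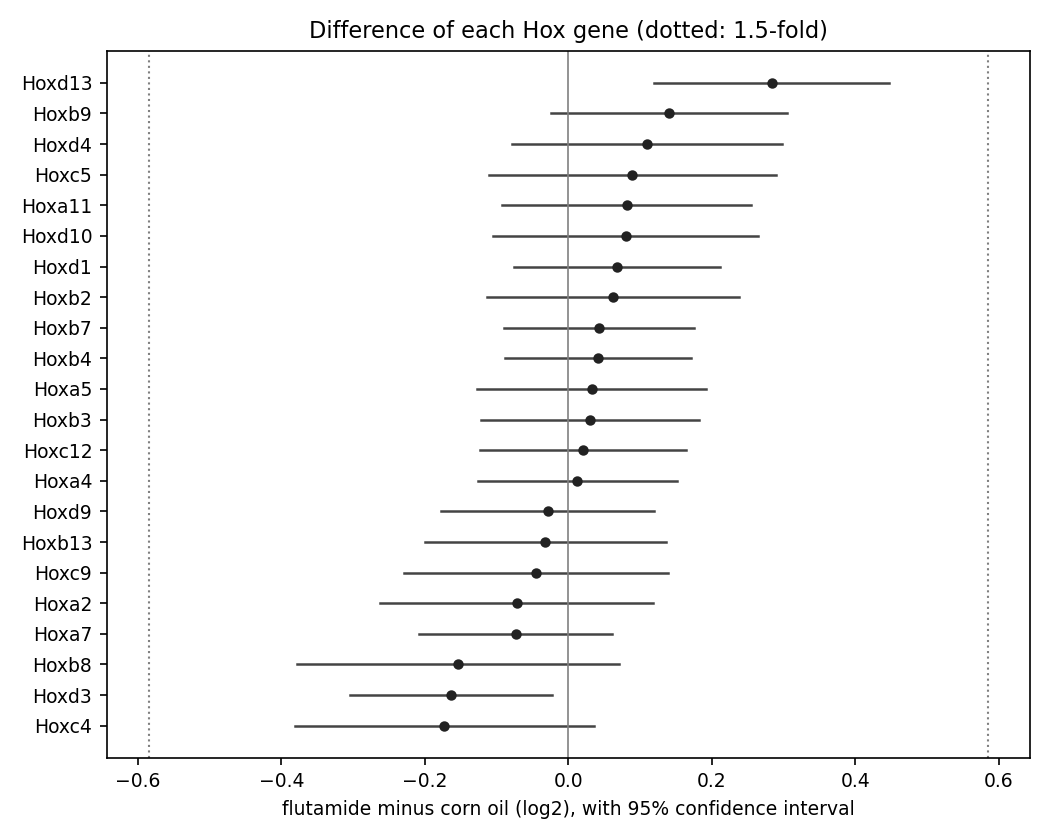
Difference of each Hox gene, flutamide minus corn oil, on the log2 scale with limma's 95% confidence interval, ordered by size; dotted lines mark a 1.5-fold change. Hoxd13 at 0.28 and Hoxd3 at -0.16 have intervals that leave out 0, and no interval reaches 1.5-fold.

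By position along the clusters, the 9 members of paralog groups 1 to 4 had a median difference of 0.030, the 5 members of groups 5 to 8 of 0.032 and the 8 members of groups 9 to 13 of 0.050. Among the anterior genes Hoxc4 differed by -0.17 (SE 0.10), Hoxd4 by 0.11 (SE 0.09) and Hoxa2, a hindbrain gene, by -0.07 (SE 0.09). Hoxb3 and Hoxb4, 2 of the brightest members, differed by 0.03 (SE 0.07) and 0.04 (SE 0.06). In the middle groups Hoxb8 differed by -0.15 (SE 0.11), Hoxa7 by -0.07 (SE 0.06) and Hoxa5, a gene of lung and trunk patterning, by 0.03 (SE 0.08). Among the posterior genes Hoxb9 differed by 0.14 (SE 0.08), Hoxa11 by 0.08 (SE 0.08), Hoxc9 by -0.04 (SE 0.09) and Hoxc12 by 0.02 (SE 0.07). Hoxa4, Hoxb2, Hoxb7, Hoxc5, Hoxd1 and Hoxd10 had differences between 0.01 for Hoxa4 and 0.09 for Hoxc5. By cluster the median differences were 0.013 in A, 0.042 in B, -0.012 in C and 0.074 in D.

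Hoxb13, the other measured gene of paralog group 13, had values with a lowest of 4.49, a median of 4.71 and a highest of 4.89 in flutamide litters, against 4.53, 4.67 and 5.00 in corn oil litters. The groups covered nearly the same range, and the difference was -0.03 (SE 0.08). Hoxd10 had a lowest of 6.47, a median of 6.61 and a highest of 6.68 in flutamide litters, against 6.05, 6.57 and 6.77 in corn oil litters. Its difference was 0.08 (SE 0.09), and the corn oil litters spread more widely, with an SD of 0.08 in flutamide and 0.24 in corn oil. Without corn oil replicate 6, the lowest litter, the Hoxd10 difference was 0.0031, and with single litters left out it reached 0.12. Hoxd9, next to Hoxd10 in the cluster, differed by -0.03 (SE 0.07).

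**Figure D3:**
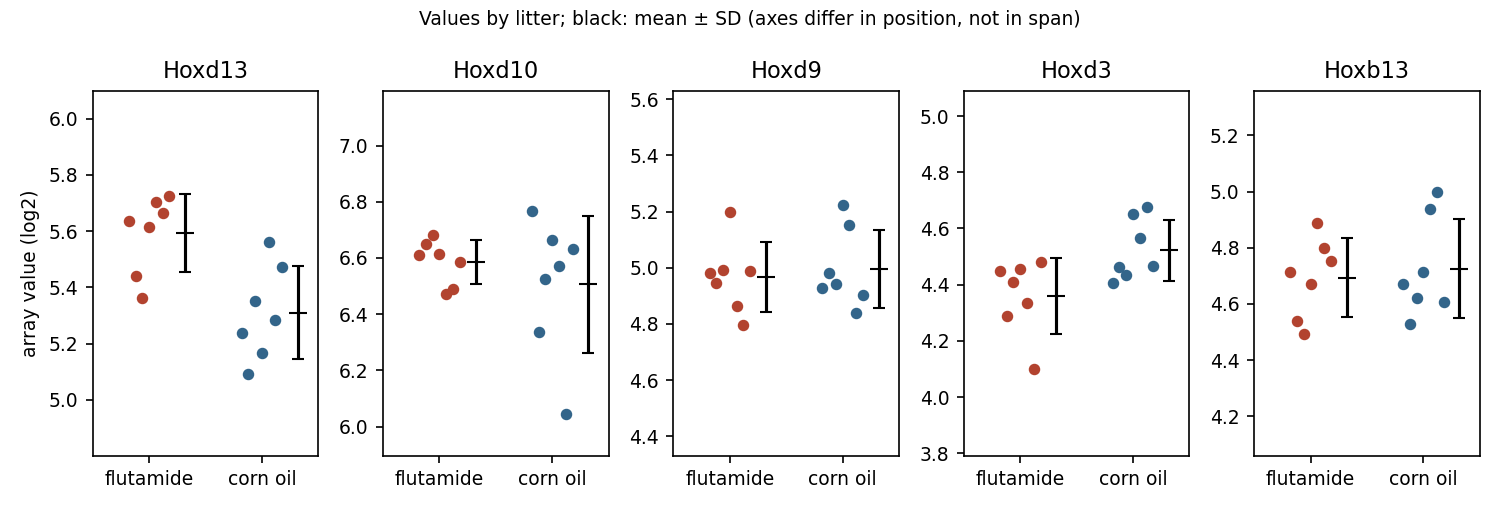
Array values on the log2 scale by litter for Hoxd13, Hoxd10, Hoxd9, Hoxd3 and Hoxb13, flutamide on the left and corn oil on the right of each panel, with mean and SD in black (n = 7 each). Every panel spans the same number of log2 units; for Hoxd13, 5 flutamide litters lie above every corn oil litter, while the Hoxb13 and Hoxd9 groups cover nearly the same range.

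The gap within a litter between Hoxd13 and 3 other posterior members, its paralog Hoxb13 and its cluster neighbours Hoxd10 and Hoxd9, was compared between the groups. The other posterior members Hoxb9, Hoxa11, Hoxc9 and Hoxc12 were not paired with it. Hoxb13 and Hoxd9 lay below the olfactory mark in all 14 litters, where RMA shrinks differences, and Hoxd10 lay above it in all 14. Hoxd13 exceeded Hoxb13 by 0.90 ± 0.05 in flutamide litters and by 0.58 ± 0.19 in corn oil litters (SD, n = 7 each). In 6 of 7 flutamide litters the gap was above that of every corn oil litter. The groups differed by 0.32 in this gap (95% interval 0.16 to 0.48; exact permutation p = 0.00117, adjusted over 3 pairs 0.00350). The gap to Hoxd9 was 0.63 ± 0.20 in flutamide and 0.31 ± 0.22 in corn oil litters, which is 0.31 apart (95% interval 0.07 to 0.56), with an exact permutation p of 0.0163 and 0.0245 after adjustment. Without flutamide replicate 5, 6 or 7 the adjusted exact p for Hoxd9 was 0.0533, 0.0533 and 0.0516. The gap to Hoxd10 was -0.99 ± 0.21 in flutamide and -1.20 ± 0.27 in corn oil litters, which is 0.20 apart (95% interval -0.07 to 0.48), with an exact permutation p of 0.137 before and after adjustment. With single litters left out it passed only without corn oil replicate 6, at an adjusted exact p of 0.0379. Hoxd13 entered these pairs as the member already known to have the largest difference, so the p-values are not independent evidence of it. Against Hoxd10, the 1 partner above the mark, the gap did not pass, so these pairs do not show that Hoxd13 differed from the posterior members in general.

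**Figure D4:**
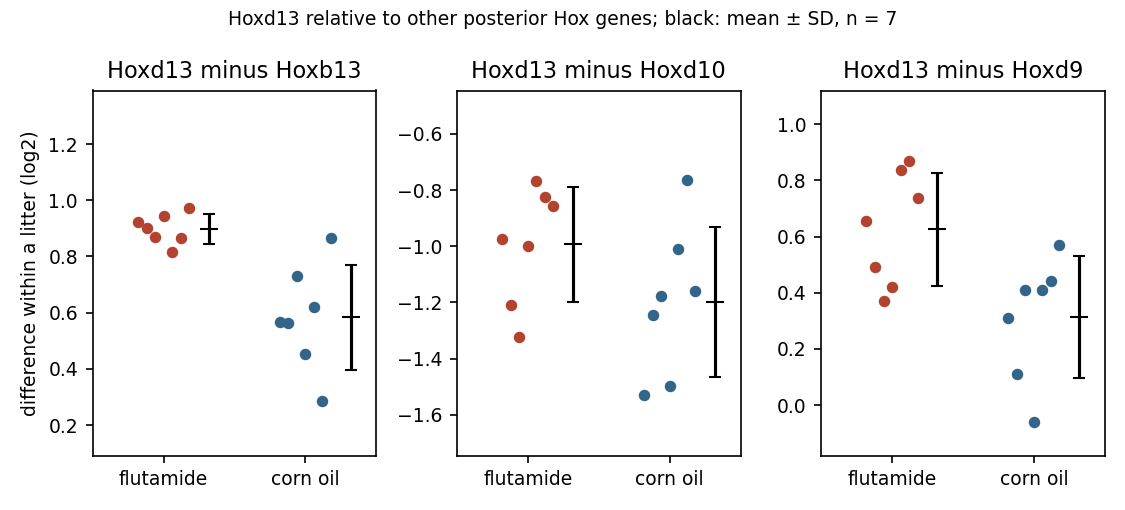
Hoxd13 minus Hoxb13, minus Hoxd10 and minus Hoxd9 within each litter on the log2 scale, flutamide on the left and corn oil on the right, with mean and SD in black (n = 7 each). For Hoxb13 the flutamide litters lie close together around 0.90, and 1 corn oil litter reaches into their range.

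Across the 14 litters, deviations of Hoxd13 from its group mean followed none of 7 measures past adjustment. The correlation with Hoxb13 was the strongest (Pearson r = 0.61, permutation p = 0.0288; Spearman rho = 0.61, permutation p = 0.0285), with adjusted p of 0.202 and 0.200, and r was 0.66 without the 2 litters farthest from the median of Hoxb13. This pair was added after the correlations had been seen. As a description, r with Hoxd13 over the other 21 members ran from -0.42 for Hoxa11 to 0.61 for Hoxb13. Hoxd10 gave r = -0.01 (permutation p = 0.970; rho = -0.09, permutation p = 0.763) and Hoxd9 r = -0.07 (permutation p = 0.829; rho = -0.18, permutation p = 0.558). The adjusted p was 0.970 for both r, and 0.870 and 0.781 for rho. Within groups of 7 litters the values for Hoxd10 differed in sign, with r = -0.77 in flutamide and 0.19 in corn oil litters, and for Hoxd9 they were -0.17 and 0.0074, as a description. Without the 2 litters farthest in the other gene, r was 0.001 for Hoxd10 and 0.10 for Hoxd9.

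Cell type markers were set beside Hoxd13 in the same way. The dermal fibroblast list, 7 of 7 markers measured, had means per litter from 8.78 to 9.01 in flutamide and from 8.84 to 8.95 in corn oil litters, and its correlation with Hoxd13 was r = 0.03 (permutation p = 0.925; rho = 0.05, permutation p = 0.870). The smooth muscle and pericyte list, 8 of 8 measured, ran from 6.92 to 7.19 in flutamide and from 7.13 to 7.38 in corn oil litters, and all 8 markers had differences below 0. Its correlation with Hoxd13 was r = -0.32 (permutation p = 0.279; rho = -0.31, permutation p = 0.295). For basal keratinocytes, 5 of 6 measured, list means ran from 8.51 to 8.71 in flutamide and from 8.57 to 8.74 in corn oil litters, with r = 0.27 (permutation p = 0.354; rho = 0.24, permutation p = 0.429). For the hair follicle list, 7 of 9 measured, list means ran from 6.73 to 6.98 in flutamide and from 6.72 to 7.08 in corn oil litters, with r = 0.26 (permutation p = 0.414; rho = 0.39, permutation p = 0.185). The adjusted p for r was 0.970 for fibroblasts and 0.724 for the other 3 lists, and for rho 0.870, 0.688, 0.751 and 0.647 in the order given. Without the 2 farthest litters r was 0.20, -0.18, 0.39 and 0.30. Within groups of 7 litters, as a description, r with Hoxd13 was -0.31 in flutamide and 0.56 in corn oil for fibroblasts, -0.13 and -0.48 for smooth muscle, -0.31 and 0.90 for basal keratinocytes and 0.13 and 0.34 for the hair follicle list. All 5 measured basal keratinocyte markers and 6 of 7 hair follicle markers had differences below 0, with medians of -0.032 and -0.12. Msx2 is on both the hair follicle list and the list of genes downstream of Hox13. Krt31 and Krt35 are on both the hair follicle list and the list of the Hoxc13 hair programme. An unadjusted limma p under 0.05 held for 2 of 7 hair follicle markers, Krt73 and Msx2, against 9.16% of all genes. It held for 4 of 8 smooth muscle and pericyte markers, and for 1 of 4 in skeletal muscle and in cartilage and bone. None of the fibroblast, basal keratinocyte or endothelium markers had one. The smooth muscle and pericyte markers Des and Higd1b were lower without overlap of the groups, seen in either direction for 0.124% of all genes. Of markers of other cell types, all 4 measured for skeletal muscle and all 4 for endothelium had differences below 0, with list means per litter from 6.28 to 6.89 and from 6.92 to 7.21 in flutamide, against 6.53 to 7.01 and 6.98 to 7.36 in corn oil litters. All 4 measured for cartilage and bone had differences above 0, with list means from 5.76 to 5.98 in flutamide and from 5.56 to 5.87 in corn oil litters. Any part of these cell types in the Hoxd13 difference was not tested beyond these values.

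The 5 genes whose deviations correlated best with those of Hoxd13 over the 14 litters, among 14496 others, were Lsg1, a GTPase of ribosome assembly, with r = 0.85, the olfactory receptor genes Or11h4d with 0.83 and Or4f7 with 0.82, at dim corn oil values of 2.53 and 2.76, the secreted Wnt inhibitor gene Wif1 with 0.80 and Apc2, a relative of the APC tumour suppressor gene, with 0.80. The highest of so many correlations over 14 litters is given as a description.

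Genes around the Hox family were read from 6 lists, and in none did a member pass over all genes. Among the genes that border the clusters, 11 of 13 were measured, with a median difference of 0.013. On the outer side of Hoxd13 in the genome lie Evx2, a homeobox gene expressed with Hoxd13 in limb and genital buds, and Lnpk, which encodes an endoplasmic reticulum protein. Evx2 averaged 5.11 ± 0.20 in flutamide and 5.10 ± 0.17 in corn oil litters (SD, n = 7 each), a difference of 0.02 (SE 0.09), which turned to -0.0089 without corn oil replicate 1. Lnpk averaged 5.99 ± 0.07 in flutamide and 6.04 ± 0.16 in corn oil litters, a difference of -0.05 (SE 0.07). Mtx2, a mitochondrial import gene beyond the Hoxd1 end, differed by -0.04 (SE 0.08). The members of this list with the smallest p-values were Hibadh, a valine catabolism enzyme next to cluster A, at -0.07 (SE 0.05), and Cbx5, heterochromatin protein 1 alpha, at 0.08 (SE 0.06).

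The TALE homeodomain proteins of the Meis, Pbx and Pknox families bind DNA together with Hox proteins. Of 9 listed genes 7 were measured, 5 with a difference above 0, and the median was 0.046. Meis2, at 7.25 ± 0.12 in flutamide and 7.14 ± 0.08 in corn oil litters (SD, n = 7 each), differed by 0.11 (SE 0.06; limma adjusted p = 0.629), and Pbx2 by 0.09 (SE 0.06; limma adjusted p = 0.694). The regulators of Hox expression, Polycomb and trithorax genes with Cdx and retinoic acid pathway genes, had 19 of 24 measured and a median of -0.019. The smallest p-values were those of the Polycomb genes Cbx8, with -0.13 (SE 0.07), and Phc1, with -0.10 (SE 0.06).

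Genes reported downstream of Hox13 proteins in the mouse limb or genital tubercle had 11 of 12 measured, 3 of them with a difference above 0, and a median of -0.015. Msx2, a homeobox gene of epithelial appendages, ranged from 6.19 to 6.45 in flutamide and from 6.42 to 6.60 in corn oil litters, and was lower by a log2 value of -0.18 (SE 0.05) without passing (limma adjusted p = 0.348). Fgf8, a growth factor gene of the limb ridge and urethral plate, differed by 0.12 (SE 0.06). Of the rest of the list, Aldh1a2 differed by -0.14 (SE 0.09), Bmp2 by -0.13 (SE 0.08) and Bmp4 by 0.11 (SE 0.06). The ephrin receptor gene Epha7 differed by -0.02 (SE 0.07), Epha3 by 0.08 (SE 0.08), Hand2 by -0.05 (SE 0.06) and Bmp7 by -0.02 (SE 0.07). Shh differed by -0.01 (SE 0.07) and Msx1 by -0.003 (SE 0.12).

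All 6 hindlimb and genital field factors were measured, with a median difference of 0.003. Tbx3, a T-box gene of limb and genital mesenchyme, averaged 6.09 ± 0.06 in flutamide and 5.87 ± 0.12 in corn oil litters (SD, n = 7 each), with overlapping groups. Its difference of 0.22 (SE 0.06; limma adjusted p = 0.304) was the largest of the list and did not pass. Tbx4, a T-box gene of the hindlimb and genital field, was at 6.73 ± 0.13 in flutamide and 6.83 ± 0.07 in corn oil litters (SD, n = 7 each), a difference of -0.10 (SE 0.06). Isl1, a factor of the genital tubercle, differed by -0.02 (SE 0.07) and Pitx1, which sets hindlimb identity, by 0.09 (SE 0.08). Tbx5, the forelimb counterpart of Tbx4, had an array value of 6.10 in the corn oil litters and differed by 0.03 (SE 0.06).

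Hoxc13 drives hair keratin genes in the hair shaft of mouse and human. All 10 genes of that programme were measured, 5 with a difference above 0, with a median of 0.004. The smallest p-values were those of Krt83, with 0.26 (SE 0.10; limma adjusted p = 0.453), and Krt35, with 0.11 (SE 0.09). Krt83 ran from 6.09 to 6.41 in flutamide litters and from 5.47 to 6.32 in corn oil litters, so the groups overlapped.

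**Figure D5:**
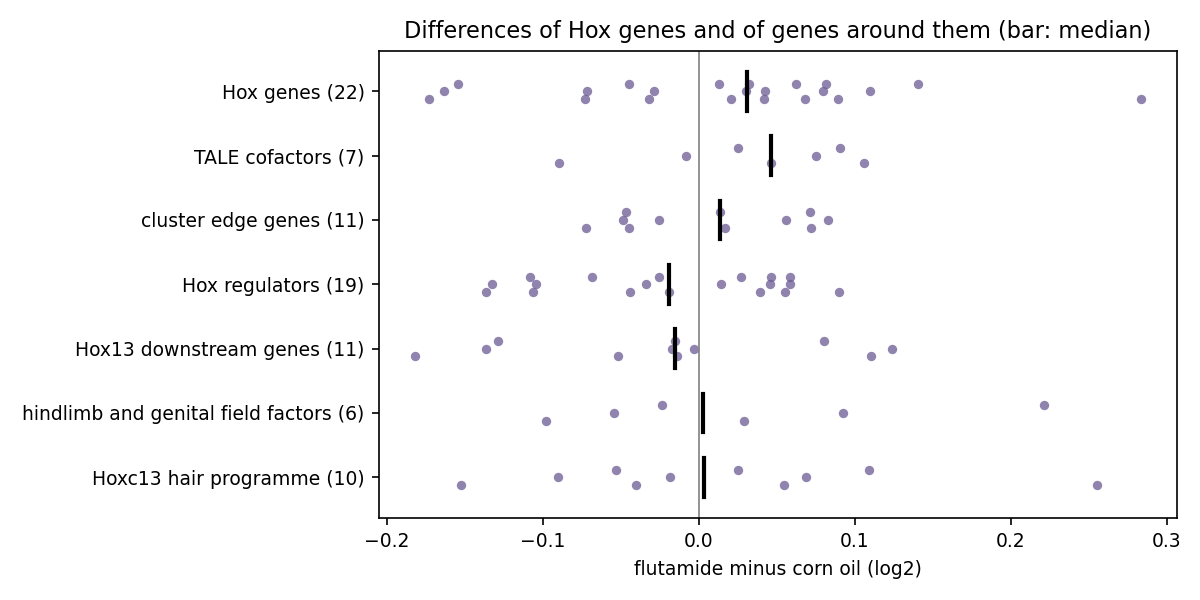
Difference of each gene, flutamide minus corn oil, on the log2 scale, for the Hox genes and the 6 lists around them, with the number of measured genes in brackets and a bar at the median. The medians lie between -0.019 for the Hox regulators and 0.046 for the TALE cofactors, with Hoxd13, Krt83 and Tbx3 farthest to the right.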

How the data were processed

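Foreskin RNA of 7 flutamide and 7 corn oil litters was hybridised to Affymetrix Gene 1.0 ST arrays. The authors deposited log2 values of 28826 probe sets, made with RMA per the submitters' processing notes. The values ran from 0.669 to 13.8, which is how their log2 scale was recognised. The sources used here do not give the RMA version or the array's genome build. RMA shrinks differences of dim probe sets.

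Probe sets were named by GEO's platform annotation, and 15209 had 1 symbol, 306 several and 13311 none. The brightest probe set of each of 14497 genes was kept, and 14471 gene numbers matched RefSeq (GRCr8), which changed no Hox symbol. Names are those of the array's design, so close paralogs may share probes. The test was limma's moderated test (version 3.58.1, R 4.3.3; lmFit, eBayes; two-sided; Benjamini-Hochberg over all genes; threshold 0.05), a fit tested on simulated data. The simulation required calls only for changes larger than 1.5-fold, so it does not show that changes of the size of the Hox differences would be called. Single values were compared by exact permutation, and correlations by 100000 permutations within groups. Intervals of gaps come from the pooled spread between litters. The number of arrays limits the precision. The median SE of a difference over all genes was 0.073.

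Every member is named. Full values are given for members with an unadjusted p under 0.05 and for measured group 13 genes, the 2 members with the smallest p of each other list, and the neighbours of Hoxd13. Other genes named were chosen after their values were seen. The members and lists were chosen with earlier results of these data known. Planned pairs with genes that were not analysed here were not made. Alternatives were other scalings, filters, summaries and models, a replicate block, and each litter left out in turn. Array SD settings, a wider olfactory set and the pair with Hoxb13 in the correlations were added after the data were seen.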

Additional observations from a re-analysis of the deposited data

Results flagged for a closer look

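Of 92 groups of 7 litters checked for a litter apart from the rest, 4 held one, where chance gives about 5% of groups, or 4.6. Hoxb2 was at 5.20 in flutamide replicate 7, against 4.69 to 4.89 in the other flutamide litters. Hoxd1 was at 5.46 in flutamide replicate 3, against 5.67 to 5.78 in the others of its group. Hibadh was at 6.66 in flutamide replicate 7, against 6.78 to 6.87. Cbx8 was at 5.14 in corn oil replicate 5, against 4.74 to 4.91 in the other corn oil litters.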

How the results depend on the processing

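No Hox gene passed under any of the 24 alternatives fitted to all genes, and neither did a member of the 6 other lists. The Hoxd13 difference stayed between 0.25 and 0.33 with adjusted p from 0.232 to 0.640, and was 0.27 with array SD as a covariate and 0.25 without the arrays of highest and lowest SD (corn oil replicate 1, flutamide replicate 7). Leaving out single litters put the median Hox difference at 0.0043 to 0.049, and the other alternatives at -0.0086 to 0.042. The number of Hox genes at an unadjusted p under 0.05 ran from 1 to 4. The number of all genes passing, 1, was 2 with limma's trend and robust options, 2 with array SD as a covariate, 0 with the replicate block, 0 without the arrays of highest and lowest SD, and 0 to 1 with single litters left out, being 0 without flutamide replicate 1, 2, 3 or 4 or corn oil replicate 1, 3, 4, 5 or 7. At least 10 and at most 12 members lay above the olfactory mark, and the gap of Hoxd13 to it was -0.0061 with 1102 olfactory genes, -0.037 with medians over litters and -0.075 without corn oil replicate 5.

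Of 517 refits of the Hox differences 24 changed direction, in 9 genes, and the cause was not tested. Most of these had differences under 0.05 in size, but Hoxb2 was at 0.062 and Hoxd4 at 0.11. With single litters left out Hoxa4 ran from -0.014 to 0.053, Hoxa5 from -0.0079 to 0.074, Hoxb3 from -0.014 to 0.061, Hoxb13 from -0.065 to 0.013, Hoxc9 from -0.085 to 0.0032, Hoxc12 from -0.0048 to 0.069, Hoxd9 from -0.067 to 0.0092, Evx2 from -0.048 to 0.073 and Mtx2 from -0.089 to 0.010. With array SD as a covariate Hoxa4 was -0.0077, Hoxa5 -0.0023, Hoxb2 -0.0043, Hoxb3 -0.047, Evx2 -0.038 and Mtx2 0.034. Without the arrays of highest and lowest SD Hoxa4 was -0.0027, Hoxa5 -0.0097, Hoxb3 -0.041, Hoxc12 -0.010, Hoxd4 -0.0074, Evx2 -0.073 and Mtx2 0.018. Hoxc12 was -0.015 after quantile normalisation and Evx2 -0.031 with array weights. With single litters left out the Hoxd13 gap to Hoxb13 ran from 0.27 to 0.36, to Hoxd10 from 0.15 to 0.28 and to Hoxd9 from 0.25 to 0.36. The correlation of Hoxd13 with fibroblast markers was -0.020 after median centring.

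The deviations of same-numbered litters correlated at -0.07 to 0.15, with 1 of 7 pairs over 0.1, and 2 of 14 litters correlated best with their own number, so the numbers were not taken as pairs. With the replicate block the Hoxd13 difference was 0.28 with a limma adjusted p of 0.252. No alternative changed the levels of Hoxb3, Hoxd10, Hoxd13 or Hoxb9 by more than an SD between litters. Signal near that of olfactory genes limits what the dimmer Hox probe sets can show.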

Other observations

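The mean over the 22 Hox genes was highest in flutamide replicate 7, at 5.44, and lay between 5.27 and 5.37 in the other flutamide litters and between 5.28 and 5.35 in the corn oil litters. The same array had the lowest SD of its values, 1.48, against up to 1.60 in corn oil replicate 1. Within the flutamide litters the deviations of Hoxd13 and Hoxb13 correlated with r = 0.93, and within the corn oil litters with r = 0.41, over 7 litters each, as a description. Other within-group values also lay far from 0, such as r = 0.90 with basal keratinocyte markers in corn oil litters. In the other direction, r with Hoxd10 was -0.77 in flutamide litters.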
